A study of Oryctolagus cuniculus with 57 samples.

Results

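The extracellular matrix genes of the rabbit ileum were followed from weaning to 49 days of age. They were taken by name: collagens, laminins, matrix metalloproteinases (MMP), their tissue inhibitors (TIMP), the ADAMTS and ADAMTS-like genes and fibulins, with FN1, SPARC, DCN, LUM, ELN and FBN1. Of the 8349 named genes with a probe in the deposited value table, 66 were such matrix genes, with 152 probes. A probe was kept when it was well above background on enough arrays of any group, and 63 of the 66 genes passed this filter, among 8034 genes in all. They were 14 basement membrane genes (6 laminin chains and 8 collagen chains), 23 interstitial genes (7 fibrillar collagens, 10 other collagens and 6 glycoproteins) and 26 proteases and inhibitors (13 MMP, 10 ADAMTS or ADAMTSL and 3 TIMP). The 3 members that were too dim were MMP14, ADAMTS12 and ADAMTSL4. No probe could be paired with SPARC, ELN, TIMP2, COL6A1 or LAMA5 by the tables used here, which left 21174 of the 42089 probes without a name, so the collagen, laminin and TIMP groups hold the named genes alone.

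The animals were young commercial hybrid rabbits of either sex (PS Hyplus 19 × PS Hyplus 39), raised in nests under 3 treatments. In the FF group fecal pellets from foreign does were put in the nest, in the NF group the nest held no feces, and in the FFab group the pellets came from does given tetracycline and tiamulin. Each array measured the ileum of 1 rabbit at 35 days (weaning) or at 49 days of age. There were 10 arrays per treatment at 35 days and 9 per treatment at 49 days. Feces were given by nest, and the labels name neither litter nor sex, so p-values here measure the spread between rabbits of which some may be littermates.

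The basement membrane is the thin sheet on which the gut epithelium, vessels and muscle cells rest. It is built from laminins and from network-forming type IV collagen, and anchoring fibrils of type VII collagen tie it to the tissue beneath. The interstitial matrix of the lamina propria, submucosa and muscle layers is built from fibrillar collagens together with fibronectin, decorin, lumican and fibrillin, while MMP and ADAMTS enzymes cut these proteins and TIMP proteins hold the MMP in check. In bulk tissue such as this, fewer cells of a type and less RNA per cell cannot be told apart.

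Each value below is the reading of a 60-base probe, and the probes of the members on which the results turn are shown 5′ to 3′ so that the stretch of transcript behind each value can be seen. Capitals mark a stop codon that closes, at the last base of the probe, the reading frame begun at its first base. All 7 probes had a reading frame of the first base free of any earlier stop codon. The first frame was not alone in this, since COL8A1 had 3 such frames and each other probe had 2. An open first frame therefore does not show that the protein is read in it.

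COL8A1: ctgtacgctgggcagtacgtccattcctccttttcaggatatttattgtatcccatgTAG

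COL7A1: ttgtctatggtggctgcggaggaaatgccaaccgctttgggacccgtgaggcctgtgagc

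LAMB3: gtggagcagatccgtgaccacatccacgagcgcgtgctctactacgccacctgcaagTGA

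COL4A1: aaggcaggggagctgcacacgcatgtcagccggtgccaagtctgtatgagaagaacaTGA

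MMP1: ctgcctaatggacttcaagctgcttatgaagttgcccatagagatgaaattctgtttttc

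ADAMTS1: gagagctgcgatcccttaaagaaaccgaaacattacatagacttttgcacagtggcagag

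FN1: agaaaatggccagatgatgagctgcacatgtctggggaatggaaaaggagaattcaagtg

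The array's own annotation places them on the oryCun2 build of the rabbit genome. The COL8A1 probe lies at chr14:120915235-120915294 on the minus strand, and the ADAMTS1 probe at chr14:156050623-156050682 on the minus strand. The COL7A1 probe lies at chr9:16264932-16264991 and the COL4A1 probe at chr8:111526263-111526322, both on the minus strand. The LAMB3 probe lies at chr16:63066881-63066940 and the MMP1 probe at chr1:113751893-113751952, both on the plus strand, and the FN1 probe lies at chr7:156707664-156707723 on the minus strand. Each match spans 60 bases, so none crosses an intron. Exon and intron labels of this build were not used here.

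Between 68.1% and 85.7% of the probes on an array were well above background. The 57 arrays lay on 9 slides, and every group had arrays on each of the 9. From the fit 1 day 35 NF array that the study set aside was left out. It was the sole array of its group on slide 7, so that group had none there in the fit. The ileal bile acid genes SLC10A2 (the transporter) and FABP6 (the binding protein) marked the distal ileum on 49 of the 56 remaining arrays, with a log2 level of SLC10A2 between 8.10 and 13.58 and of FABP6 between 17.72 and 19.29. On the other 7 arrays SLC10A2 lay between 2.10 and 5.24 and FABP6 between 7.88 and 15.48. Of these 7 arrays, 4 were from 35 days (3 FFab, 1 NF) and 3 from 49 days (2 FFab, 1 NF). None was of the FF group. Counts of members and correlations are therefore also given without them.

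Across the 3 treatments, COL8A1 rose between 35 and 49 days of age, while MMP1 and ADAMTS1 fell. COL8A1, a short-chain collagen that forms networks, was 2.01-fold higher at 49 days. MMP1, the interstitial collagenase, was 2.37-fold lower, and ADAMTS1, a secreted protease that cuts matrix proteoglycans, was 1.59-fold lower. To pass the limma test a gene needed a log2 fold change above 0.5 in size and an adjusted p below 0.05. These 3 were the members that passed, out of 63 (4.76%), against 276 of all 8034 genes (3.44%). In the higher direction 1 member (1.59%) and 2.35% of all genes passed, and in the lower direction 2 members (3.17%) and 1.08% of all genes passed. The share of members that passed was thus close to that of all genes. Without the 7 arrays of low SLC10A2 the same 3 members passed.

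At 35 days the log2 level of COL8A1 ran from 9.78 to 11.64 in FF (median 10.99), from 10.04 to 11.84 in NF (median 11.22) and from 10.28 to 12.40 in FFab (median 11.16). At 49 days it ran from 11.33 to 13.89 in FF (median 12.54), from 10.80 to 13.22 in NF (median 12.14) and from 10.42 to 13.64 in FFab (median 12.01). All 9 FF rabbits of 49 days, 7 of 9 NF and 7 of 9 FFab rabbits were above the median of their treatment at 35 days, and the ranges of the days overlapped in each treatment. The log2 fold change over the treatments was 1.0 ± 0.20 (SE, limma adjusted p = 0.000492). Within a slide the mean at 49 days was the higher on 9 of 9 slides.

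MMP1 was among the members that varied most between rabbits. At 35 days its log2 level ran from 7.17 to 12.44 in FF (median 10.15), from 6.99 to 11.78 in NF (median 8.78) and from 7.36 to 11.89 in FFab (median 8.62). At 49 days it ran from 6.15 to 9.33 in FF (median 7.52), from 6.37 to 11.69 in NF (median 8.45) and from 6.17 to 9.11 in FFab (median 7.68). The days overlapped in each treatment, and 3 of the 9 NF rabbits at 49 days had log2 levels above 10, as high as the upper rabbits of 35 days. The highest of these 3, at 11.69, was on 1 of the 7 arrays of low SLC10A2. The log2 fold change was -1.24 ± 0.38 (SE, limma adjusted p = 0.0215), and the mean at 49 days was the lower on 9 of 9 slides. Of the 3 MMP1 probes, tested over all probes kept, 2 passed and the remaining one had a log2 fold change of -0.68 (limma adjusted p = 0.0582).

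ADAMTS1 was read more evenly. At 35 days its log2 level ran from 8.73 to 9.75 in FF (median 9.37), from 8.05 to 10.37 in NF (median 8.88) and from 8.51 to 9.49 in FFab (median 9.12). At 49 days it ran from 7.56 to 9.28 in FF (median 8.55), from 7.80 to 9.28 in NF (median 8.24) and from 7.04 to 8.92 in FFab (median 8.68). Every FF and every FFab rabbit of 49 days was below the median of its treatment at 35 days, as were 7 of 9 NF rabbits. The log2 fold change was -0.67 ± 0.15 (SE, limma adjusted p = 0.00143).

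**Figure D1:**
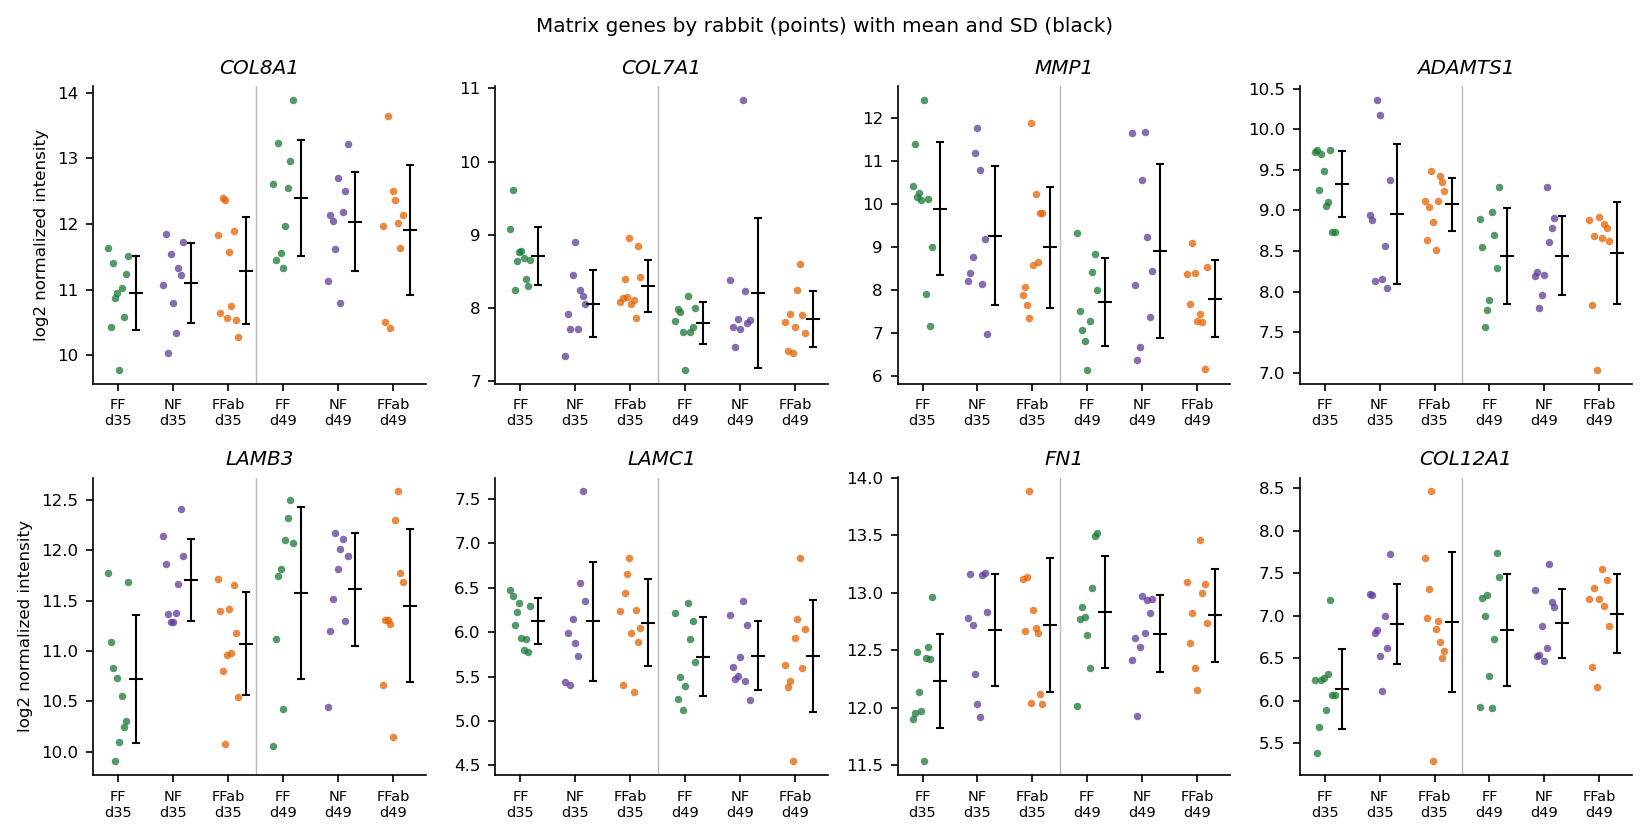
Log2 quantile-normalized intensity (y axis, a scale of its own in each panel) of 8 matrix genes in each rabbit (points), for FF, NF and FFab at 35 days (d35) and 49 days (d49) of age, with the group mean and SD in black (n = 9 or 10 rabbits). COL8A1 lies higher at 49 days, MMP1 and ADAMTS1 lie lower, and the FF rabbits of 35 days have the lowest median for LAMB3, FN1 and COL12A1.

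Besides the 3 members that passed, 6 had an adjusted p under 0.05 but a log2 fold change within 0.5, and all 6 were lower at 49 days. With no minimum fold change 9 of 63 members (14.3%) would pass, against 13.4% of all genes. These 6 were COL4A1, COL7A1 and LAMC1 of the basement membrane, COL1A1 and FBLN2 of the interstitial matrix, and ADAMTSL3. The median log2 fold change over the 63 members was -0.10 and that over all genes tested was -0.0048. Of the members, 42 had a negative and 21 a positive fold change, and 21 (33.3%) had an unadjusted p under 0.05, against 25.7% of all genes. With the 7 arrays of low SLC10A2 left out the count was again 21 (24.9% of all genes).

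No basement membrane gene passed the test between 35 and 49 days. The median log2 fold change over the 14 genes was -0.13, and 9 had a negative and 5 a positive value. An unadjusted p under 0.05 was reached by 8 of the 14 (57.1%, against 25.7% of all genes), of which 6 had negative values. The positive values were those of LAMB3 and COL4A4. COL4A4 was dim, well above background on 32 of 56 arrays. At 49 days only its FFab group reached the filter's share of 0.75, so the filter could favour a rise of COL4A4. The largest difference among the laminin chains was that of LAMC1, the gamma chain that most laminins share, with a log2 fold change of -0.39 ± 0.13 (SE, limma adjusted p = 0.0373). Its median log2 level went from 6.15 in FF, 5.99 in NF and 6.14 in FFab at 35 days to 5.66, 5.61 and 5.64 at 49 days, and the ranges overlapped in each treatment. LAMB1, a beta chain found throughout the gut wall, had a log2 fold change of -0.21 ± 0.08 (SE, adjusted p = 0.0873). Its 4 probes lay between -0.21 and -0.19.

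LAMB3, a beta chain of the laminin that anchors epithelial hemidesmosomes, was the laminin chain with a positive value, 0.38 ± 0.17 on the log2 scale (SE, limma adjusted p = 0.133). The 2 probes of LAMB2 disagreed in size. Tested over all probes, 1 had a log2 fold change of -0.37 (limma adjusted p = 0.00333) and the other, which was read for the gene, had -0.07 (adjusted p = 0.823).

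The paired chains of the common type IV collagen, COL4A1 and COL4A2, had log2 fold changes of -0.28 ± 0.09 (SE, limma adjusted p = 0.0395) and -0.21 ± 0.08 (SE, adjusted p = 0.0868). The median log2 level of COL4A1 was 11.16 in FF, 11.01 in NF and 11.33 in FFab at 35 days, and 10.77, 10.78 and 10.91 at 49 days. It ran from 10.54 to 11.84 over the rabbits of 35 days and from 10.02 to 11.88 over those of 49 days, so that the days overlapped widely. COL7A1, the collagen of anchoring fibrils, had a log2 fold change of -0.41 ± 0.14 (SE, adjusted p = 0.0469).

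**Figure D2:**
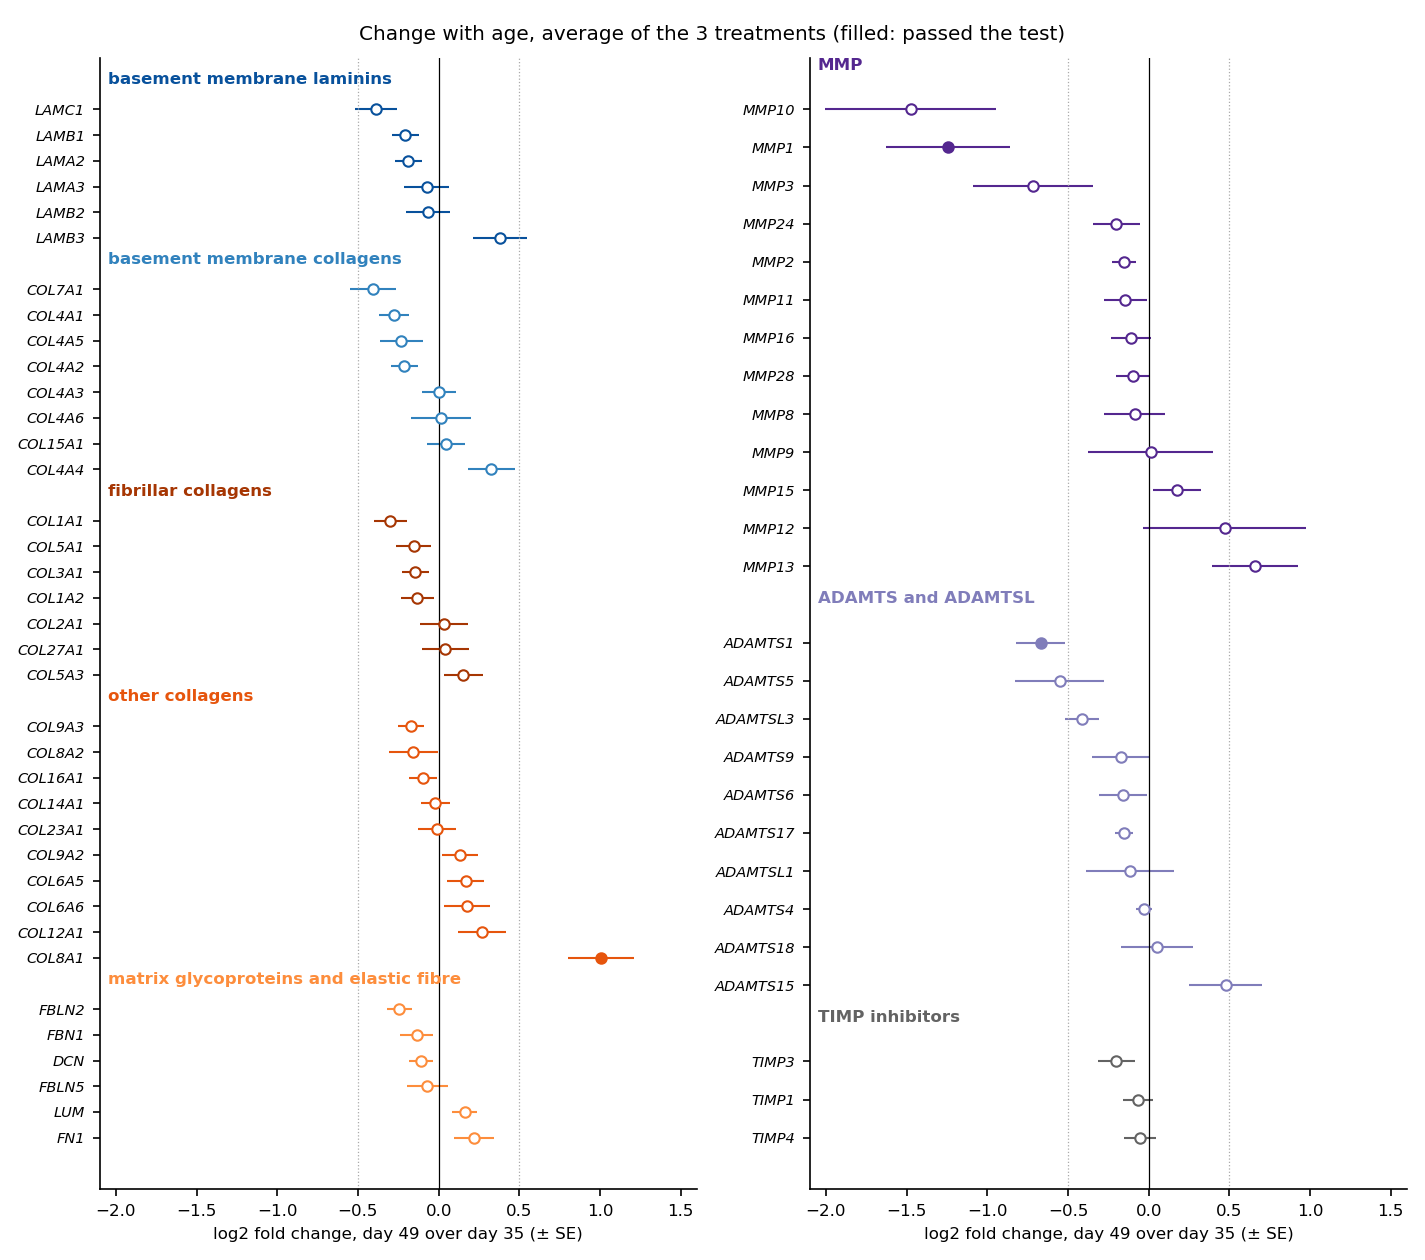
Log2 fold change, 49 over 35 days of age, of each of the 63 tested members (x axis, average of the 3 treatments, bars are SE), grouped by role, with dotted lines at the fold minimum. Filled points passed the test: COL8A1 to the right, MMP1 and ADAMTS1 to the left. Most basement membrane chains lie just left of 0.

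The interstitial list took in every tested collagen outside the basement membrane list, the network-forming COL8A1 among them. COL8A1 was the 1 gene of its 23 that passed, so this contrast with the basement membrane rests on where COL8A1 was placed. The 23 genes had a median log2 fold change of -0.02, with 13 negative and 10 positive values, and 5 (21.7%, against 25.7% of all genes) had an unadjusted p under 0.05. Among the fibrillar collagens, COL1A1 had -0.30 ± 0.10 on the log2 scale (SE, limma adjusted p = 0.0418). Its partner chain COL1A2 had -0.13 ± 0.10 (adjusted p = 0.446), and COL3A1, the other main fibrillar collagen of soft tissue, had -0.15 ± 0.08 (adjusted p = 0.282). All 11 probes of COL1A2 were negative, from -0.24 to -0.10, and all 5 of COL3A1 lay between -0.16 and -0.14.

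The median log2 level of COL1A1 was 11.46 in FF, 11.42 in NF and 11.63 in FFab at 35 days, and 11.24, 11.15 and 11.31 at 49 days. Its lowest and highest rabbits were 10.96 and 12.40 at 35 days and 10.59 and 12.51 at 49 days. Of the glycoproteins, FBLN2, a fibulin of elastic fibres and basement membranes, had -0.24 ± 0.08 (SE, limma adjusted p = 0.0231). DCN, the collagen-binding proteoglycan decorin, had -0.11 ± 0.07 (adjusted p = 0.385), and LUM, its relative lumican, had 0.16 ± 0.08 (adjusted p = 0.173). FBN1, the fibrillin of microfibrils, had -0.14 ± 0.10 (adjusted p = 0.446) and FN1, fibronectin, had 0.22 ± 0.12 (adjusted p = 0.253).

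Among the other collagens, COL12A1, which binds along collagen fibrils, had a log2 fold change of 0.27 ± 0.15 (SE, limma adjusted p = 0.263). With no filter on dim probes the value of COL12A1 was slightly negative, so its sign depended on the filter. COL9A3, a chain of a fibril-associated collagen, had -0.17 ± 0.08 (adjusted p = 0.162). Over the 10 genes of this group the values ran from -0.17 to 1.0, and that of COL8A1 stood alone at the upper end, since the next was that of COL12A1.

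The proteases and inhibitors had a median log2 fold change of -0.13, with 20 of 26 values negative. MMP10, a stromelysin that cuts many matrix proteins, had the most negative value, -1.47 ± 0.53 on the log2 scale (SE, limma adjusted p = 0.0537). It was close to the detection limit. At 35 days the MMP10 probe stood well above background in 6 of 10 FF rabbits, 7 of 9 NF rabbits and 7 of 10 FFab rabbits, and at 49 days in 5, 4 and 3 of 9. Only NF at 35 days, where its median was highest, reached the filter's share of 0.75. MMP10 was thus kept through a group in which it was high, which favours a fall with age. The median log2 level of MMP10 went from 5.69 in FF, 6.44 in NF and 5.15 in FFab to 4.06, 3.77 and 2.85, and single rabbits ran from 1.90 to 9.77. MMP13, another collagenase, went the other way with 0.66 ± 0.26 (limma adjusted p = 0.092). The probe read for MMP13 was also dim. Unlike that of MMP10 it stood well above background in most rabbits of each treatment at 49 days, and in fewer NF rabbits at 35 days. Each group of 49 days reached the filter's share of 0.75 for MMP13, and NF at 35 days did not. The filter could thus favour a rise of MMP13 in NF. The other MMP13 probe had a log2 fold change of 0.44 (limma adjusted p = 0.267, tested over all probes), and neither gene passed.

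MMP2, the gelatinase made by stromal cells, had -0.15 ± 0.08 (SE, limma adjusted p = 0.195) and all 6 of its probes were negative. ADAMTSL3, an ADAMTS-like protein without protease activity, had -0.41 ± 0.10 (adjusted p = 0.00449), and its 5 probes lay between -0.41 and -0.22. ADAMTS5, an aggrecan-cutting enzyme, had -0.55 ± 0.27 (adjusted p = 0.192), and ADAMTS17 had -0.15 ± 0.06 (adjusted p = 0.0548). The inhibitors TIMP1, TIMP3 and TIMP4 had -0.07 ± 0.09, -0.20 ± 0.11 and -0.06 ± 0.10, with adjusted p of 0.707, 0.265 and 0.786 in limma.

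Of the 63 genes, 24 were read by more than 1 probe that passed the filter. In 20 of these all probes had the same sign over the 3 treatments, and the widest range among probes of 1 gene was 0.57, in MMP1.

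Within the FF group, COL8A1 rose between 35 and 49 days, and COL7A1, MMP1 and ADAMTS1 fell. COL8A1 was 2.74-fold higher at 49 days, with a log2 fold change of 1.45 ± 0.35 (SE, limma adjusted p = 0.00619). MMP1 was 4.54-fold lower (log2 -2.18 ± 0.66, adjusted p = 0.0294), COL7A1 was 1.89-fold lower (log2 -0.92 ± 0.24, adjusted p = 0.0119) and ADAMTS1 was 1.85-fold lower (log2 -0.89 ± 0.26, adjusted p = 0.0218). These 4 of 63 members (6.35%) stood against 4.29% of all genes. By direction, 1 member (1.59%) was higher against 2.81% of all genes, and 3 members (4.76%) were lower against 1.48%. Without the minimum fold change LAMA2 joined them, and 7.94% of the members and 7.85% of all genes would pass. Without the 7 arrays of low SLC10A2, none of which was of FF, the same 4 members passed and COL12A1 with them.

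COL7A1 separated the days of FF most clearly among the members. Its log2 level in FF ran from 8.24 to 9.61 at 35 days (median 8.66) and from 7.15 to 8.17 at 49 days (median 7.83), so that the days did not overlap. This was the 1 member of 63 in FF whose days did not overlap. The share of all genes without overlap was not counted, so the count has no background to be read against. In NF it ran from 7.34 to 8.90 (median 8.06) and then from 7.47 to 10.85 (median 7.84), and in FFab from 7.86 to 8.95 (median 8.14) and then from 7.39 to 8.60 (median 7.81). The medians of the 3 treatments lay within 0.03 of each other at 49 days, and that of FF was the highest at 35 days.

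LAMB3, FN1 and COL12A1 were higher in FF at 49 days by more than the fold minimum without passing. LAMB3 ran from 9.90 to 11.77 at 35 days (median 10.64) and from 10.06 to 12.50 at 49 days (median 11.82), a log2 fold change of 0.85 ± 0.29 (SE, limma adjusted p = 0.055). FN1 ran from 11.53 to 12.96 (median 12.28) and then from 12.01 to 13.52 (median 12.79), a log2 fold change of 0.60 ± 0.21 (SE, limma adjusted p = 0.0631). Its 11 probes all had positive values in FF, from 0.48 to 0.75, and 4 of them passed when each probe was tested on its own. COL12A1 ran from 5.38 to 7.19 (median 6.16) and then from 5.91 to 7.74 (median 7.0), a log2 fold change of 0.70 ± 0.26 (SE, limma adjusted p = 0.0897). With no filter on dim probes the log2 fold change of COL12A1 in FF stayed positive but within the fold minimum.

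LAMA2, a laminin alpha chain of muscle and stroma, which was chosen here after its values were seen, was lower in FF at 49 days. It ran from 9.87 to 10.68 at 35 days (median 10.18) and from 9.30 to 10.26 at 49 days (median 9.74), a log2 fold change of -0.45 ± 0.14 (SE, limma adjusted p = 0.045) that stayed within the fold minimum.

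Basement membrane and interstitial genes had medians of opposite sign in FF. The median log2 fold change was -0.23 over the 14 basement membrane genes, with 10 negative, and 0.07 over the 23 interstitial genes, with 13 positive. The median over all genes in FF was -0.011. In NF both medians were negative, -0.10 and -0.12, and in FFab they were -0.09 and -0.15.

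**Figure D3:**
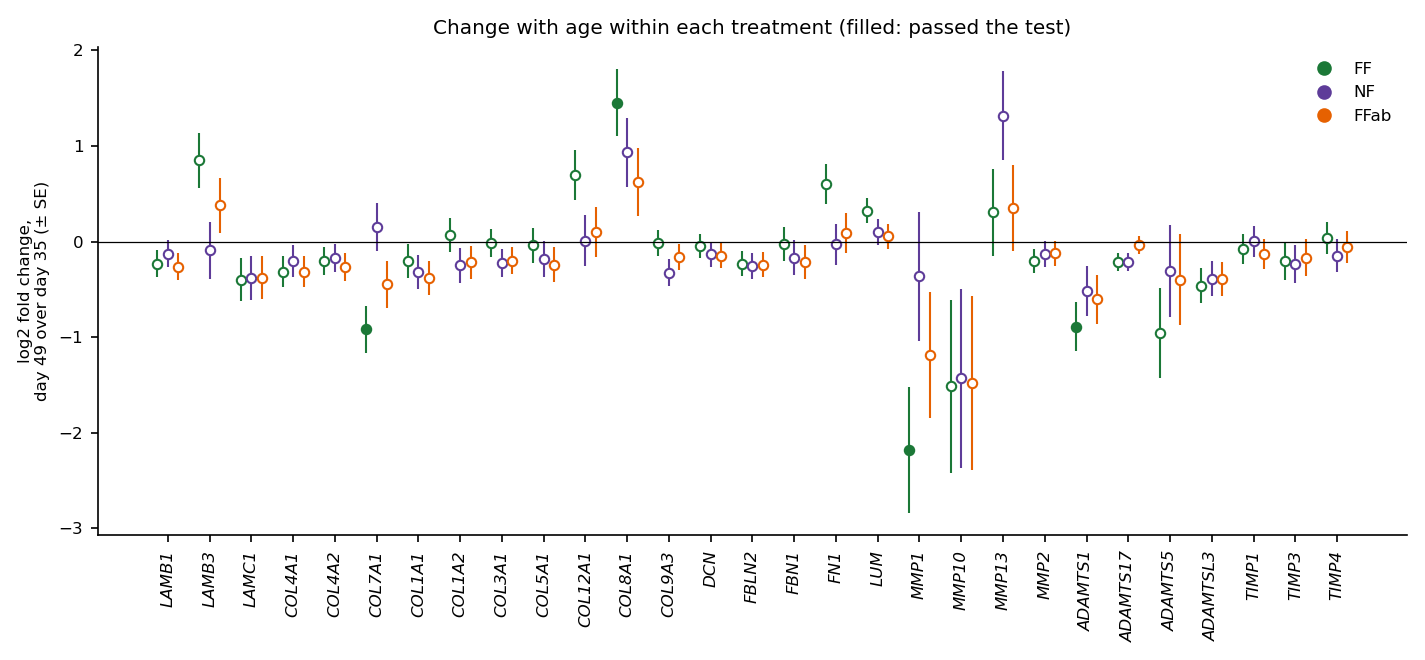
Log2 fold change between 35 and 49 days of age (y axis, bars are SE) of the 29 members named by rule, within FF, NF and FFab. The filled points, COL7A1, COL8A1, MMP1 and ADAMTS1, are those that passed, and all are of the FF group.

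No member passed in NF, where 0.0373% of all genes did, nor in FFab, where 0.0747% did (limma). At an unadjusted p under 0.05 there were 6 members in NF (9.52%, against 6.05% of all genes) and 3 in FFab (4.76%, against 8.48%). Leaving out the 7 arrays of low SLC10A2 gave 10 in NF (15.9%, against 8.34%) and 5 in FFab (7.94%, against 5.64%), and again no member passed. In NF the log2 fold change of COL8A1 was 0.94 ± 0.36 (SE, limma adjusted p = 0.566), that of ADAMTS1 was -0.52 ± 0.26 (adjusted p = 0.82) and that of MMP1 was -0.36 ± 0.68 (adjusted p = 0.998). In FFab they were 0.62 ± 0.35, -0.60 ± 0.26 and -1.19 ± 0.66, with adjusted p of 0.654, 0.492 and 0.644 in limma.

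The log2 fold change of COL7A1 was 0.15 ± 0.25 in NF (SE, limma adjusted p = 0.998), and in FFab it was -0.45 ± 0.24 (adjusted p = 0.635). The NF rabbits of 49 days included 1 at a log2 level of 10.85, whose array was also 1 of the 7 with low SLC10A2. Without those 7 arrays COL7A1 had -0.22 ± 0.18 in NF (SE, adjusted p = 0.886).

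That a gene passed in FF and not in NF or FFab does not show that the treatments differ, so the difference between the changes was tested itself. No member passed it, nor did any gene (0% of all genes in FF against NF, in FF against FFab and in NF against FFab, limma). At an unadjusted p under 0.05, 6 members (9.52%) differed in FF against NF, where 4.48% of all genes did. They were COL7A1, LAMA2, LAMB3, FN1, COL4A3 and MMP28. Of these, COL4A3 was dim, and at 49 days it met the probe filter in NF but not in FF, which could favour its difference. No member reached it in FF against FFab, where 2.88% of genes did, or in NF against FFab, where 0.934% did. COL7A1 came first, with a difference in log2 fold change of -1.07 ± 0.35 (SE, limma adjusted p = 0.821), and -0.69 ± 0.24 (adjusted p = 0.976) without the 7 arrays of low SLC10A2. Without them the counts at an unadjusted p under 0.05 were 6, 1 and 0 in the 3 comparisons, and no gene passed.

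At 35 days, 6 members differed between FF and NF at an unadjusted p under 0.05 (9.52%, against 7.68% of all genes), and none passed, while 0.0373% of all genes did. The FF rabbits had more COL7A1 and LAMA2 and less LAMA3, LAMB3, FN1 and COL12A1 transcript, as point estimates. These are the day 35 FF rabbits that enter the change with age in FF, so the comparisons share samples. LAMA2 was higher in FF by 0.61 ± 0.14 on the log2 scale (SE, limma adjusted p = 0.181). LAMB3 was lower by a log2 difference of -0.98 ± 0.29 (adjusted p = 0.274) and LAMA3, the alpha chain that joins LAMB3 in the hemidesmosomal laminin, by -0.75 ± 0.24 (adjusted p = 0.341).

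LAMB3 ran from 11.29 to 12.41 in NF at 35 days (median 11.67) and from 10.07 to 11.71 in FFab (median 11.08), against a median of 10.64 in FF. LAMA3 ran from 7.74 to 10.07 in FF (median 9.15), from 9.53 to 10.21 in NF (median 9.78) and from 8.53 to 9.86 in FFab (median 9.32). The NF rabbits were thus the upper and the most even of the 3 groups for these 2 chains, although the ranges met.

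In FF against FFab at 35 days 4 members had an unadjusted p under 0.05 (6.35%, against 6.1% of all genes), and none passed, while 0.0124% of all genes did. In NF against FFab 2 members did, LAMA3 and LAMB3 (3.17%, against 2.02%), and no gene passed (0%). At 49 days no gene passed in any pair of treatments (0%). At an unadjusted p under 0.05 there was 1 member in FF against NF, COL4A3 (1.59%, against 1.18% of genes), and none in FF against FFab (2.36% of genes) or NF against FFab (1.85% of genes).

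These counts within a day depended on the 7 arrays of low SLC10A2, 5 of which were of FFab. Without them, at 35 days, 15 members had an unadjusted p under 0.05 in FF against FFab (23.8%, against 9.24% of all genes), 9 in NF against FFab (14.3%, against 4.48%) and 6 in FF against NF (9.52%, against 8.38%). At 49 days there were 12 in NF against FFab (19.0%, against 3.82%), 2 in FF against FFab (3.17%, against 2.96%) and 1 in FF against NF (1.59%, against 1.08%). No member passed in any of these 6 comparisons in limma.

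Marker genes of muscle, fat, epithelium, fibroblasts and endothelium were followed over the same rabbits. Of 8 smooth muscle markers 5 were measured, and their mean, taken as the deviation of each gene from its own mean, ran from -1.24 to 0.17 on the log2 scale in FF at 35 days (median -0.31) and from -0.53 to 0.85 at 49 days (median 0.08). In NF at 35 days it ran from -0.73 to 0.74 (median 0.26). From 35 to 49 days the group mean of the smooth muscle markers went from 0.12 to -0.06 in NF and from 0.09 to 0.13 in FFab. Of 6 striated muscle markers, which smooth muscle shares in part (DES), 4 were measured, and their mean ran from -1.32 to -0.24 in FF at 35 days and from 0.15 to 1.16 at 49 days, with no overlap. Their group mean went from -0.08 to 0.26 in NF and from -0.28 to 0.47 in FFab, with overlap in both. Of 6 fat tissue markers 3 were measured (FABP4, LPL and LEP), and their mean ran from -1.31 to 0.13 in FF at 35 days and from 0.23 to 1.26 at 49 days, again with no overlap. The group mean of the fat markers went from -0.89 to 0.55 in NF and from -0.39 to 0.52 in FFab, with overlap in both. The share of all genes or gene lists without overlap in FF was not counted, so these cases have no background. LPL and FABP4 rose over the 3 treatments, by 1.36 ± 0.16 and 1.72 ± 0.27 on the log2 scale (SE, limma adjusted p = 3.48e-08 and 1.38e-05). All 5 smooth muscle markers were well above background on at least 56 arrays. The interstitial matrix mean ran from -0.46 to 0.10 in FF at 35 days (median -0.07) and from -0.24 to 0.44 at 49 days (median 0.02), and the basement membrane mean from -0.20 to 0.43 (median 0.06) and from -0.43 to 0.20 (median -0.05). Of 8 epithelial markers 5 were measured, and their mean ran from -0.76 to 0.40 in FF at 35 days and from -0.18 to 0.62 at 49 days. Their group mean went from -0.06 to 0.10 in NF and from -0.12 to 0.14 in FFab. Of 7 fibroblast markers 2 were measured (TCF21 and CD34). From 35 to 49 days their group mean went from 0.14 to -0.12 in FF, from 0.003 to -0.18 in NF and from 0.16 to -0.04 in FFab. Of 6 endothelium markers 5 were measured. Their group mean went from 0.12 to 0.006 in FF, from -0.07 to -0.08 in NF and from 0.08 to -0.08 in FFab. The part of these tissue differences in the matrix results was not tested.

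**Figure D4:**
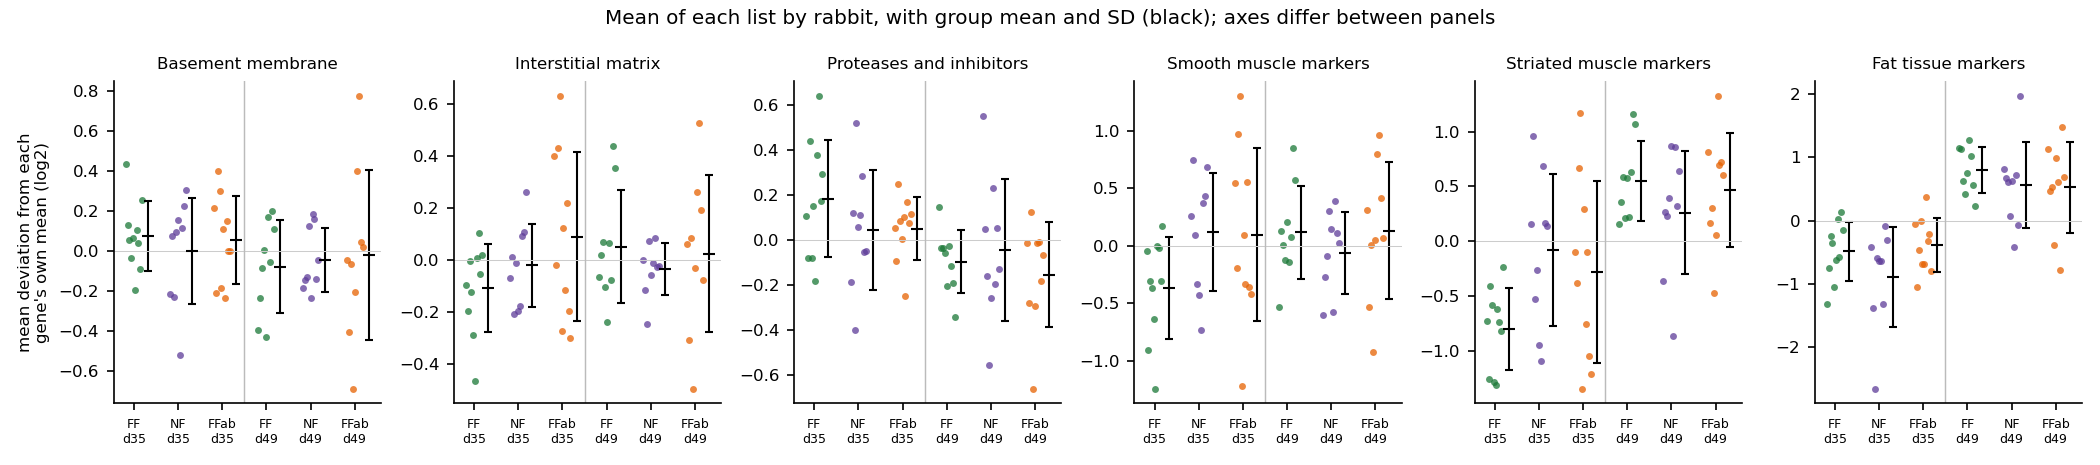
Mean deviation of each rabbit (points) over the genes of a list from each gene's own mean (y axis, log2, a scale of its own in each panel), with group mean and SD in black. The lists are basement membrane (14 genes), interstitial matrix (23), proteases and inhibitors (26), smooth muscle markers (5), striated muscle markers (4) and fat tissue markers (3). The striated muscle and the fat tissue markers of the FF rabbits do not overlap between 35 and 49 days, while the matrix lists overlap in every treatment. The share of all genes or lists without overlap was not counted.

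Many matrix chains work only as partners in 1 molecule, so the chains were also set against each other over rabbits, as deviations from the group mean. Over 10 partner pairs, COL4A1 and COL4A2 went together most closely (r = 0.961, rho = 0.951, n = 56 rabbits). COL1A1 and COL1A2 had r = 0.921 and rho = 0.936, and COL5A1 and COL5A3 had r = 0.847 and rho = 0.854. In these 3 pairs the p of a permutation of rabbits within groups was 1e-05 for both measures, the smallest that 100000 permutations give, with adjusted p of 2.5e-05 for r. Without the 2 rabbits farthest from the median the r values were 0.949, 0.908 and 0.835, and with the slide removed they were 0.961, 0.963 and 0.820. Without the 7 arrays of low SLC10A2 they were 0.938, 0.916 and 0.842.

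The laminin partners were less tight. LAMB1 and LAMC1 had r = 0.627 (rho = 0.570) and LAMA2 and LAMB1 had r = 0.490 (rho = 0.503), with adjusted permutation p of 2.5e-05 and 0.000217. LAMA3 and LAMB3 had r = 0.470 and rho = 0.467 (adjusted permutation p = 0.00103), with r = 0.196 at 35 days and 0.710 at 49 days. COL4A5 and COL4A6 had r = 0.545 and rho = 0.426 (adjusted permutation p = 0.000217), and COL4A3 and COL4A4, both dim, had r = 0.229 and rho = 0.239 (adjusted permutation p = 0.072). Leaving out the 2 farthest rabbits gave r of 0.583, 0.529, 0.486, 0.427 and 0.264 in this order. Without the 7 arrays of low SLC10A2 they were 0.533, 0.365, 0.50, 0.346 and 0.192. Before adjustment over the 10 pairs the permutation p of r was 1e-05, 0.00013, 0.00072, 0.00013 and 0.0576, and the adjusted p of rho was 0.0001, 0.00036, 0.001, 0.00281 and 0.0985.

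COL8A1, the collagen that rose with age, had no positive correlation with COL8A2. The mean log2 level of COL8A2 was 5.83, against 11.59 for COL8A1, and it was well above background on 53 of 56 arrays. Such a low level limits what their correlation can show. COL8A1 and COL8A2 had r = -0.206 and rho = -0.218 (adjusted permutation p = 0.171), and r = -0.150 without the 2 farthest rabbits. By day, r was -0.42 at 35 days and -0.029 at 49 days. COL9A2 and COL9A3 had r = -0.102 and rho = -0.113 (adjusted permutation p = 0.528), and the sign turned to r = 0.075 without the 2 farthest rabbits. The r values of these pairs were -0.117 and -0.283 without the 7 arrays of low SLC10A2.

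**Figure D5:**
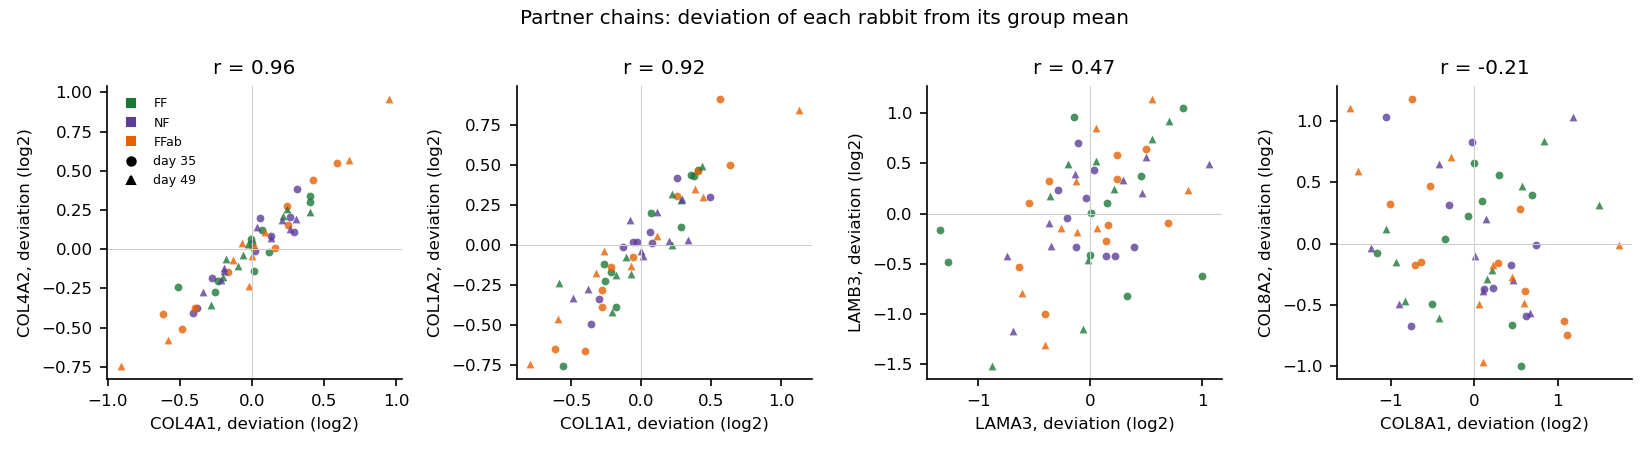
Deviation of each rabbit from its group mean (log2) for 4 pairs of partner chains, with 1 chain on each axis, colour for the treatment, circles for 35 days and triangles for 49 days. Points lie along a line for COL4A1 with COL4A2 and for COL1A1 with COL1A2, and scatter for COL8A1 with COL8A2.

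As a description over all pairs of genes, the median correlation of deviations was 0.506 among the 7 fibrillar collagens and 0.396 among the 8 basement membrane collagens. It was 0.096 among the 6 laminin chains, 0.039 among the 13 MMP and 0.0081 over all pairs of the 8034 genes. All genes of an array share its RNA sample and its normalization.

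The rabbits of 1 group differed most in the inducible MMP. The SD within groups was 2.02 on the log2 scale for MMP10, 1.93 for MMP12, 1.48 for MMP9, 1.47 for MMP1 and 1.42 for MMP3, against a median of 0.33 over all genes. MMP9, the gelatinase of leukocytes, ran from 7.08 to 12.45 over the rabbits, with group medians between 8.21 and 10.33. It had a log2 fold change of 0.01 ± 0.39 between the days (SE, limma adjusted p = 0.991). The 31 collagen and laminin chains had an SD from 0.299 to 0.781 with a median of 0.445, and 26 of them were above the median of all genes. COL8A1 had the highest of these, followed by COL4A6 (0.71) and LAMB3 (0.64), and COL9A3 the lowest, next to LAMB1 (0.31).

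Of 60 measured genes that work on or with the matrix, 3 passed over the 3 treatments (5.0%, against 3.44% of all genes) and 5 in FF (8.33%, against 4.29%). The same genes passed without the 7 arrays of low SLC10A2. Among 16 measured genes of collagen synthesis and crosslinking, none passed over the 3 treatments, with 4 at an unadjusted p under 0.05 (limma). In FF 2 of the 16 passed (12.5%), both lower at 49 days, a direction in which 1.48% of all genes passed. They were BMP1, which trims procollagen (log2 -0.67 ± 0.20, adjusted p = 0.0299), and LOX, which crosslinks collagen and elastin (log2 -0.60 ± 0.20, adjusted p = 0.0463). Among 18 receptors for matrix proteins, 1 passed: the laminin receptor chain ITGA7 rose over the 3 treatments (log2 0.59 ± 0.16, adjusted p = 0.00821) and in FF (log2 1.16 ± 0.27, adjusted p = 0.00481). Among 20 proteoglycans and matricellular proteins, HAPLN1, which links hyaluronan to proteoglycans, fell (log2 -0.52 ± 0.08, adjusted p = 5.18e-06), as did POSTN, the matricellular protein periostin (log2 -0.56 ± 0.11, adjusted p = 0.000329). None of the 6 further basement membrane proteins passed in limma, and 1 had an unadjusted p under 0.05.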

How the data were processed

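Ileal RNA of 57 rabbits was hybridised to a 1-colour custom rabbit array, 1 array per rabbit, on 9 slides. The deposited scanner files hold spot intensity values from Feature Extraction (version 10.7.3.1 in the submitters' processing notes, 10.10.1.1 in the file headers). The authors also deposited a value table of log2 intensities with the same quantiles in every column, which set the probes that count as members and served as an alternative.

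The processed intensity, without spots marked as outliers, was averaged per probe, put on a log2 scale and quantile-normalized over 56 arrays (limma version 3.58.1, R version 4.3.3). The array that the study set aside was left out. The filter asked that 0.5 or more of the spots of a probe stand well above background, on a share of 0.75 or more of the arrays in any group, and 31720 probes met it. Gene names came from accessions, gene identifiers and gene names in the files and from the study's tables, in this order. A probe that the study's tables call ADAMTS14 has the gene identifier of SGPL1 in the files and was left out. The probe of median level was read for each gene.

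limma fitted 1 mean per treatment and day with Benjamini-Hochberg adjustment over 8034 genes, and the call needed an adjusted p below 0.05 and a log2 fold change above 0.5 in size. The study's own filters and thresholds guided these choices. The fit was also run on simulated data with independent normal values per gene. Those data hold no slide effect and no correlation between genes, so the run does not bear on the calls above. Precision is limited by 9 or 10 rabbits per group. The members and lists were chosen with earlier results of these data known. Named members were those that passed, the 3 of each role with the smallest p over the treatments, the main structural genes, and those the study's tables name. Alternatives concerned arrays, scaling, background, filter, slide, weights and probes.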

Additional observations from a re-analysis of the deposited data

Results flagged for a closer look

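Of 78 sets of rabbits checked (13 genes in 6 groups), 3 held a rabbit that stood apart from the rest of its group by the Dixon criterion, which chance alone flags in about 5% of sets. COL7A1 had a rabbit at a log2 level of 10.85 in NF at 49 days, where the next was 8.38. The array of this rabbit was 1 of the 7 with low SLC10A2. COL7A1 also had a rabbit at 7.15 in FF at 49 days, where the next was 7.67. COL12A1 had a rabbit at 7.19 in FF at 35 days, where the next was 6.32.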

How the results depend on the processing

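In FF between 4 and 6 members passed under the 15 alternatives, and COL8A1, COL7A1, MMP1 and ADAMTS1 were among them each time. In NF, in FFab, between treatments and between their changes the count stayed at 0 under each alternative. Over the 3 treatments 3 members passed, and the count was 5 with 75th percentile scaling, with slide as a random block and with every probe on its own, 7 with array weights and 9 with no minimum fold change. The lowest count was 2, with the probe of highest level per gene, where MMP1 had -0.68 on the log2 scale (limma adjusted p = 0.0536). COL8A1 ran from 0.97 to 1.07 and ADAMTS1 from -0.72 to -0.59. No call reversed. With no filter on dim probes COL12A1 had -0.042 over the 3 treatments and 0.21 in FF. MMP10 and MMP13 passed under 4 alternatives each, FN1 in FF under 6 and LAMB3 in FF under 4. The alternative without the 7 arrays of low SLC10A2 was added after the data were seen. No analysis paired by rabbit was possible because no rabbit number is shared between groups. Slides were shared by the groups, and with slide as a fixed block 4 members passed over the 3 treatments and 5 in FF. Without the 7 arrays the correlation of COL4A5 with COL4A6 went from 0.545 to 0.346. The probes of MMP10 and MMP13 were dim and not well above background on every array, which limits what can be said of these genes.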

Other observations

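Another 9 matrix genes had probes on the array but none in the deposited value table. They were ADAMTS16, COL10A1, COL11A2, COL22A1, MMP17, MMP20, MMP21, MMP27 and MMP7, and their probes were well above background on at most 13 of 57 arrays, the highest number being that of COL11A2. MMP7, an MMP made by Paneth cells in the mouse, had 5 probes, each well above background on 3 to 6 arrays.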
